A study of Mus musculus with 4 samples.

Results

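PDGFRα+ and CD137+ adipocyte progenitors of mice, both given PBS after adipogenic differentiation in culture, were compared by RNA sequencing. The comparison takes 2 of the 4 samples of the series, 1 library for each cell type, picked by cell type and treatment and not by any measured value. PDGFRα+ cells, which the labels also call CD140+, carry the receptor for platelet-derived growth factor encoded by Pdgfra. CD137+ cells carry the tumour necrosis factor receptor family member encoded by Tnfrsf9. All cells came from C57BL/6 mice, were taken from fat given as SAT or VAT by magnetic sorting (MACS), were grown, and then received a cocktail that drives fat cell formation, whose composition is not stated. The labels do not say which cell type came from which depot, how many animals were pooled, or how old they were. The other 2 samples are the same cell types given 1 µM dexamethasone (DEX), a synthetic glucocorticoid, and their values stand beside some results below. The title of the series asks about a glucocorticoid-driven switch of PDGFRα+ cells to white adipocytes in visceral fat. PBS libraries of both cell types show how the 2 labelled libraries differed without the 1 µM DEX treatment. With 1 library a side and depots not assigned, a difference of cell type cannot be told from one of depot or of single libraries.

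Fat tissue grows by adding adipocytes made from fibroblast-like progenitors in its stroma. Pparg and the C/EBP factors switch such cells to the adipocyte program, in which lipid is taken up, synthesised, stored in droplets and released. Progenitors of different depots keep distinct developmental transcription factors, and CD137 is known as a surface marker of cells that become beige adipocytes, which burn fuel to make heat. Visceral depots are in addition covered by mesothelium, a sheet of keratin-bearing cells.

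The values are FPKM, fragments counted per length of transcript and scaled to the library's total, from 1 table for each cell type. There were 15009 genes in the PDGFRα+ table, 14208 genes in the CD137+ table, and 13562 genes in both. At 1 FPKM or more there were 12228 genes in the PDGFRα+ and 11993 in the CD137+ library, whose summed FPKM were 433507 and 431311. The 10 highest genes took 13.9% of the sum in PDGFRα+ and 11.8% in CD137+ cells. Sequencing depth is unknown, since low values showed no steps of whole reads. With 1 library a side there is no replicate error, no test was made, and every difference below is a size only. Columns of 1 label differed between tables. The PDGFRα+ DEX column of the table that compares the 2 cell types (the between-type table) was 2-fold apart from PDGFRα+ PBS at 21 of 12456 genes, and the one of the PDGFRα+ table at 2801 of 13181. For CD137+ PBS these numbers were 1512 of 12427 and 129 of 12304. So 1 DEX column of each cell type lay close to its PBS library and the other did not, and what each DEX column holds cannot be told from the tables.

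A log2 difference below is log2(FPKM + 1) in PDGFRα+ PBS minus that in CD137+ PBS, after the median log2 ratio of the 11371 genes at 1 FPKM or more in both, -0.16, was set to 0. Compared were the 12481 genes whose higher value was at least 1 FPKM, and a gene counts as apart at 2-fold or more. PDGFRα+ cells were higher at 1106 genes, 8.86% of those compared, and lower at 642, 5.14%. Counts of list members below are to be read beside these shares. The balance of the directions depended on the scaling. Without rescaling 829 genes were higher and 939 lower in PDGFRα+ cells, and 794 and 979 when the sums without the highest and the mitochondrial genes were made equal (the trimmed sum). Differences of 4-fold or more numbered 228 higher and 106 lower, and of 16-fold or more 22 and 9. Over all compared genes the median log2 difference was 0.03. Just past the threshold on the higher side lay Akap8l, with 17.0 FPKM in PDGFRα+ cells against 9.07 FPKM in CD137+ cells, and Rrm2, with 36.2 FPKM in PDGFRα+ cells against 19.8 FPKM in CD137+ cells. Dtx3, with 45.5 FPKM in PDGFRα+ cells against 25.0 FPKM in CD137+ cells, and Mettl26, with 9.71 FPKM in PDGFRα+ cells against 4.99 FPKM in CD137+ cells, lay just under it. On the lower side Kmt5a, with 17.1 FPKM in PDGFRα+ cells against 39.5 FPKM in CD137+ cells, and Lrig1, with 5.65 FPKM in PDGFRα+ cells against 13.9 FPKM in CD137+ cells, lay just past the threshold. Eme2, with 2.34 FPKM in PDGFRα+ cells against 6.45 FPKM in CD137+ cells, and Leo1, with 3.67 FPKM in PDGFRα+ cells against 9.41 FPKM in CD137+ cells, fell just short of it.

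The genes that stood highest in PDGFRα+ cells encode proteins of several kinds, secreted, membrane and cytoskeletal. A2m, a protease inhibitor of plasma, had 242 FPKM in PDGFRα+ and 2.92 FPKM in CD137+ cells, a log2 difference of 6.11. Igfbp2, which binds insulin-like growth factors, had 200.4 FPKM in PDGFRα+ and 2.39 FPKM in CD137+ cells, a log2 difference of 6.05. Calca, the gene of calcitonin and of the neuropeptide CGRP, had 76.0 FPKM in PDGFRα+ and 0.833 FPKM in CD137+ cells (log2 difference 5.55), and Ramp1, a subunit of the CGRP receptor, had 23.3 FPKM in PDGFRα+ and 0.404 FPKM in CD137+ cells (log2 difference 4.27). A peptide gene and a subunit of its receptor thus both stood under 1 FPKM in CD137+ cells. The muscle intermediate filament Des had 113 FPKM in PDGFRα+ and 1.83 FPKM in CD137+ cells (log2 difference 5.49), the terminal complement component C7 89.4 FPKM in PDGFRα+ and 1.46 FPKM in CD137+ cells (log2 difference 5.36), and the calcification inhibitor Mgp 651 FPKM in PDGFRα+ and 18.2 FPKM in CD137+ cells (log2 difference 5.25). Next came the protease inhibitor Slpi (5.12), the ectonucleotidase Nt5e (4.83), the microfibril protein Mfap4 (4.47), the tight junction protein Cldn11 (4.38) and the ion pump regulator Fxyd6 (4.33), given as log2 differences.

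At the other end stood genes of the major urinary proteins and of lipid handling, among others. Mup17, Mup10, Mup9 and a gene listed as RP24-346O11.2, which the annotation names Mup22, had log2 differences between -7.17 and -6.00. These liver-type pheromone carriers are near-identical copies among which reads may be split, so their single values are uncertain. Summed over the family, Mup genes stood at 2.14 FPKM over 3 genes with a row in PDGFRα+ cells and at 1212 FPKM over 19 genes in CD137+ cells. The monocyte chemokine Ccl8 had 1.04 FPKM in PDGFRα+ and 66.1 FPKM in CD137+ cells (log2 difference -4.88), and Agtr2, the type 2 receptor of angiotensin II, 0.576 FPKM in PDGFRα+ and 50.7 FPKM in CD137+ cells (log2 difference -4.88). Sfrp2, a secreted Wnt modulator, had 13.3 FPKM in PDGFRα+ and 278 FPKM in CD137+ cells, a log2 difference of -4.13. The lowest lipid genes were Thrsp (-4.04 log2 units), a regulator of lipid synthesis, Acsl1 (-3.88), which activates fatty acids, Gpd1 (-3.82), which makes the glycerol backbone, and Plin1 (-3.73), a lipid droplet coat protein.

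**Figure D1:**
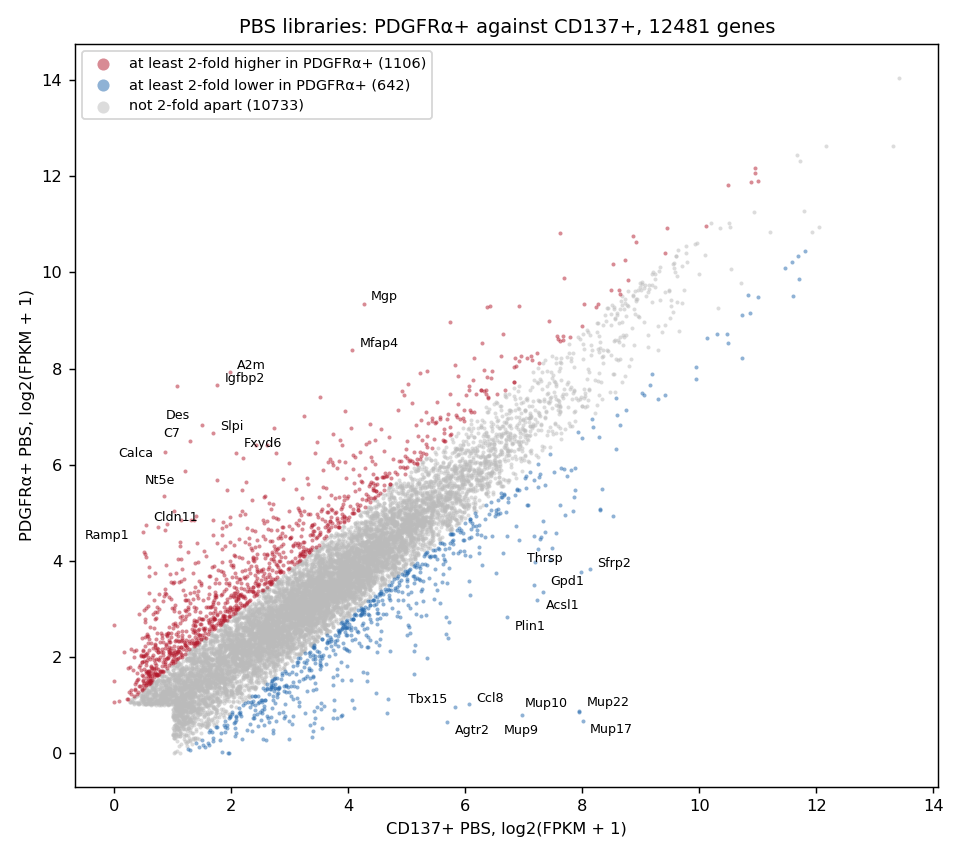
FPKM of 12481 genes on the log2(FPKM + 1) scale, as deposited, in PDGFRα+ PBS (vertical axis) and CD137+ PBS (horizontal axis), with the 24 extreme genes named. Points are coloured red for the 1106 genes at least 2-fold higher and blue for the 642 at least 2-fold lower in PDGFRα+ cells after the median was set to 0, and Mup genes lie alone at the lower right.

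The sorting markers did not separate the libraries in the direction of their labels. Pdgfra had 136.7 FPKM in PDGFRα+ and 164 FPKM in CD137+ cells, a log2 difference of -0.11. Tnfrsf9, the gene of CD137, stood at 4.14 FPKM in PDGFRα+ cells and had no row in the CD137+ table, and in the between-type table it stood at 4.81 FPKM in PDGFRα+ DEX and 0.161 FPKM in CD137+ DEX cells. The cells are therefore named by their labels throughout. Among 19 measured surface and stem markers of progenitors 3 were higher (15.8%) and 2 lower (10.5%) in PDGFRα+ cells. All compared genes gave 8.86% and 5.14%. Nt5e (CD73) had 57.5 FPKM in PDGFRα+ and 1.30 FPKM in CD137+ cells, a log2 difference of 4.83. Dpp4, a marker of early progenitors, had 3.44 FPKM in PDGFRα+ and 0.500 FPKM in CD137+ cells (log2 difference 1.72), and Cd24a 29.3 FPKM in PDGFRα+ and 14.2 FPKM in CD137+ cells (log2 difference 1.15). Ly6a, the gene of the stem cell antigen Sca-1, went the other way with 263 FPKM in PDGFRα+ and 984 FPKM in CD137+ cells (log2 difference -1.74), as did Ly6c1 with 33.0 FPKM in PDGFRα+ and 314 FPKM in CD137+ cells (log2 difference -3.05), both of a family of similar genes. Cd34 (-0.15), Thy1 (-0.08) and Pdgfrb (-0.77) were less than 2-fold apart.

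Markers of blood cells were scarce in both libraries. Of 18 macrophage genes 4 were measured, summing to 22.8 FPKM in PDGFRα+ and 14.8 FPKM in CD137+ cells. Cd14, a receptor for bacterial lipopolysaccharide that fibroblasts also make, had 15.0 FPKM in PDGFRα+ and 6.14 FPKM in CD137+ cells (log2 difference 1.33), while Cd68, Csf1r and Lyz2 lay within 2-fold. Adgre1, Itgam, Mrc1 and the C1q genes had a row in neither table, Ptprc stood at 0 in PDGFRα+ cells with no row for CD137+ cells, and none of 12 lymphocyte genes had a row. Endothelial genes had 3 of 13 members higher (23.1%) and 1 lower (7.69%), against 8.86% and 5.14% of all compared genes. They summed to 67.5 FPKM in PDGFRα+ and 42.9 FPKM in CD137+ cells. Flt1, a VEGF receptor, had 25.5 FPKM in PDGFRα+ and 2.77 FPKM in CD137+ cells (log2 difference 2.97), whereas Tek, the angiopoietin receptor, had 0.336 FPKM in PDGFRα+ and 3.23 FPKM in CD137+ cells (log2 difference -1.50), and Pecam1 stood at 3.30 FPKM in PDGFRα+ cells against 5.12 FPKM in CD137+ cells. The endothelial median of -0.11 log2 units turned to 1.11 with a 10 FPKM minimum and to 0.06 with a pseudocount of 5.

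Granulocyte and nerve sheath genes were as sparse. S100a8, a neutrophil protein, had 0.209 FPKM in PDGFRα+ and 1.83 FPKM in CD137+ cells (log2 difference -1.07). Sox10, which defines Schwann cells, had a row in neither table, while Mbp had 3.41 FPKM in PDGFRα+ and 0.930 FPKM in CD137+ cells (log2 difference 1.35) and the neuronal tubulin Tubb3 1.05 FPKM in PDGFRα+ and 5.70 FPKM in CD137+ cells (log2 difference -1.55). Skeletal muscle genes other than Des were on the CD137+ side: the skeletal actin Acta1 had 1.28 FPKM in PDGFRα+ and 5.53 FPKM in CD137+ cells (log2 difference -1.36) and the myosin light chain Mylpf 1.16 FPKM in PDGFRα+ and 4.94 FPKM in CD137+ cells (log2 difference -1.30), and Myl1, with no row for PDGFRα+ cells, stood at 5.92 FPKM in CD137+ cells. Of the bone and cartilage list Mgp (5.25), Alpl (1.62) and Runx2 (1.24) were higher and Sox9 (-1.27) lower in PDGFRα+ cells, in log2 units. Col2a1, Bglap and Sp7 had no row in either table. What part these other cell types had in the differences was not tested, and in bulk RNA fewer cells of a type and less RNA per cell cannot be told apart.

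Some transcription factors that mark depots stood far apart. Of 22 genes listed for subcutaneous fat 16 were measured, 6 of them lower (37.5%) and 1 higher (6.25%) in PDGFRα+ cells. All compared genes gave 5.14% and 8.86%. The list's median was -0.28, and 9 members were less than 2-fold apart. Tbx15, a T-box factor of subcutaneous and trunk mesenchyme, had 0.946 FPKM in PDGFRα+ and 55.5 FPKM in CD137+ cells, a log2 difference of -4.70. Hoxc10 had 0.717 FPKM in PDGFRα+ and 13.6 FPKM in CD137+ cells (log2 difference -2.93) and Hoxa10 0.892 FPKM in PDGFRα+ and 10.6 FPKM in CD137+ cells (log2 difference -2.46), both homeobox genes of the posterior trunk and hindlimb. En1, a factor of ventral and dermal precursors, had 1.51 FPKM in PDGFRα+ and 9.94 FPKM in CD137+ cells (log2 difference -1.96). Shox2 and Meox2, with a row only in the CD137+ table, stood at 12.9 and 12.5 FPKM in CD137+ cells, and in the between-type table Shox2 stood at 0.138 FPKM in PDGFRα+ DEX and 13.6 FPKM in CD137+ DEX cells. Hoxa5, more anterior in the cluster, was the 1 member 2-fold higher, with 12.6 FPKM in PDGFRα+ and 2.60 FPKM in CD137+ cells (log2 difference 2.08). In the Hoxc cluster Hoxc10 and Hoxc9 (-1.15) were 2-fold lower, and Hoxc6 (-0.36), Hoxc5 (-0.20), Hoxc4 (0.80) and Hoxc8 (0.96) were not 2-fold apart.

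Genes listed for visceral fat and its mesoderm stood on the PDGFRα+ side. Of 18 genes 10 were measured, 3 higher (30%, against 8.86% of all compared genes) and none lower, with a median of 0.62. The other 7 were less than 2-fold apart. Nr2f2, the nuclear receptor COUP-TFII, had 59.2 FPKM in PDGFRα+ cells against 15.8 FPKM in CD137+ cells. Meis1, a partner of Hox proteins, had 14.5 FPKM in PDGFRα+ and 5.22 FPKM in CD137+ cells (log2 difference 1.48), and Hand2 2.37 FPKM in PDGFRα+ and 0.608 FPKM in CD137+ cells (log2 difference 1.23). Gata6 stood at 18.5 FPKM in PDGFRα+ and 10.9 FPKM in CD137+ cells (log2 difference 0.87), short of 2-fold. Tcf21 and Wt1, which mark visceral progenitors and mesothelium, had no row in the CD137+ table and stood at 57.6 and 44.2 FPKM in PDGFRα+ cells. Their values in the between-type table were 81.1 and 39.0 FPKM in PDGFRα+ DEX and 0.640 and 1.73 FPKM in CD137+ DEX cells. Which depot each library came from is not stated, so cell type and depot cannot be told apart here.

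Mesothelial and keratin genes followed the same side. Of 20 members 9 were measured, 5 higher and none lower, with a median of 1.28, and the measured members summed to 85.5 FPKM in PDGFRα+ and 30.7 FPKM in CD137+ cells. The simple-epithelium keratin Krt7 had 12.3 FPKM in PDGFRα+ and 0.925 FPKM in CD137+ cells (log2 difference 2.94), Krt18 17.3 FPKM in PDGFRα+ and 1.90 FPKM in CD137+ cells (log2 difference 2.82) and Krt8 18.2 FPKM in PDGFRα+ and 4.04 FPKM in CD137+ cells (log2 difference 2.09). The epithelial adhesion proteins Epcam and Cdh1 were low in level and higher in PDGFRα+ cells, Epcam with 4.64 FPKM in PDGFRα+ and 0.886 FPKM in CD137+ cells (log2 difference 1.74) and Cdh1 with 2.24 FPKM in PDGFRα+ and 0.489 FPKM in CD137+ cells (log2 difference 1.28). Under the DEX label Krt18 stood at 159.6 FPKM in PDGFRα+ cells of the PDGFRα+ table and at 0.558 FPKM in CD137+ cells of the CD137+ table, and in the between-type table at 20.7 FPKM in PDGFRα+ and 9.48 FPKM in CD137+ cells. Another 10 members, among them the mesothelial surface genes Msln (11.97 FPKM), Upk1b (6.05 FPKM) and Upk3b (3.97 FPKM), had a row only in the PDGFRα+ table, and a missing row is not a measured low level. Whether mesothelial cells take part in the difference was not tested.

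**Figure D2:**
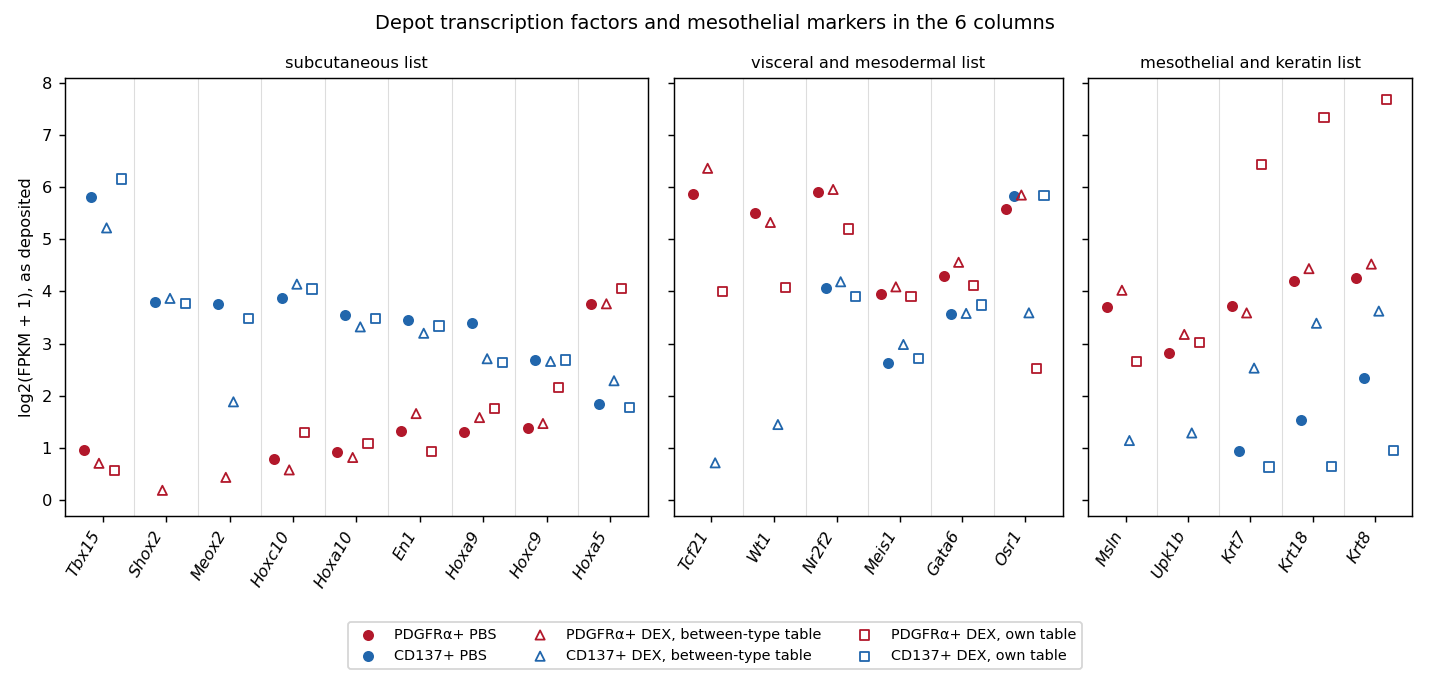
Depot transcription factors and mesothelial markers, log2(FPKM + 1) as deposited (vertical axis), with 1 point for each library and table (PDGFRα+ red, CD137+ blue, PBS filled, DEX open). Tbx15 and Hoxc10 stand above in the 3 CD137+ columns. Krt7, Krt8 and Krt18 stand higher in PDGFRα+ PBS than in CD137+ PBS, and highest in the PDGFRα+ DEX column of the PDGFRα+ table. A missing point means a missing row.

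Genes of the adipocyte program stood lower in PDGFRα+ cells, from its main regulators to proteins of the lipid droplet. Pparg, the nuclear receptor that commands it, had 7.68 FPKM in PDGFRα+ and 46.6 FPKM in CD137+ cells, a log2 difference of -2.30. Its partner Cebpa had 16.8 FPKM in PDGFRα+ and 98.6 FPKM in CD137+ cells, a log2 difference of -2.32. Mlxipl (ChREBP) and Srebf1, which switch on lipid synthesis, had 1.36 FPKM in PDGFRα+ and 21.1 FPKM in CD137+ cells (log2 difference -3.07) and 25.4 FPKM in PDGFRα+ and 115 FPKM in CD137+ cells (log2 difference -1.98). Other factors of the list were divided. Cebpd had 81.8 FPKM in PDGFRα+ and 39.8 FPKM in CD137+ cells (log2 difference 1.18) and Klf5 5.93 FPKM in PDGFRα+ and 1.31 FPKM in CD137+ cells (log2 difference 1.74). Cebpb was less than 2-fold apart at 88.3 FPKM in PDGFRα+ cells against 68.9 FPKM in CD137+ cells, as was Klf4 (-0.52 log2 units). Ebf1 had 10.1 FPKM in PDGFRα+ and 31.0 FPKM in CD137+ cells (log2 difference -1.37), and Ebf3 (-1.08) was lower as well. Ebf2, a factor of brown and beige precursors, had 2.16 FPKM in PDGFRα+ and 6.32 FPKM in CD137+ cells (log2 difference -1.05). Over the 21 adipogenic factors 8 were lower (38.1%) and 2 higher (9.52%, 1 under the trimmed sum), with a median of -0.54.

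Of 21 measured genes of lipid handling and the lipid droplet 17 were lower and 1 higher in PDGFRα+ cells, 81.0% lower against 5.14% of all compared genes. Their median was -2.01 log2 units. Gpd1 had 9.21 FPKM in PDGFRα+ cells against 160.0 FPKM in CD137+ cells. Plin1 had 6.11 FPKM in PDGFRα+ cells against 104 FPKM in CD137+ cells. Dgat2, which completes triglycerides, had 15.3 FPKM in PDGFRα+ cells against 173 FPKM in CD137+ cells. Genes of fatty acid release were lower as well, with the triglyceride lipase Pnpla2 at 22.9 FPKM in PDGFRα+ cells against 186 FPKM in CD137+ cells and the hormone-sensitive lipase Lipe at 8.74 FPKM in PDGFRα+ cells against 66.5 FPKM in CD137+ cells. For uptake, the carrier Cd36 had 18.4 FPKM in PDGFRα+ and 178 FPKM in CD137+ cells (log2 difference -3.05), lipoprotein lipase, Lpl, 219 FPKM in PDGFRα+ and 978 FPKM in CD137+ cells (log2 difference -2.00), and the fatty acid binding protein Fabp4 738 FPKM in PDGFRα+ and 1814 FPKM in CD137+ cells (log2 difference -1.14). G0s2, which inhibits Pnpla2, was the 1 member higher in PDGFRα+ cells, with 168 FPKM in PDGFRα+ and 82.7 FPKM in CD137+ cells (log2 difference 1.17), though not 2-fold higher under the trimmed sum. Plin5, Cidea and Pck1 had a row in neither table.

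Genes of adipocyte hormones were divided. Adipoq, the gene of adiponectin, had 14.7 FPKM in PDGFRα+ and 145 FPKM in CD137+ cells, a log2 difference of -3.06. Retn, resistin, had 16.2 FPKM in PDGFRα+ and 67.0 FPKM in CD137+ cells (log2 difference -1.82), Cfd, adipsin, 9.61 FPKM in PDGFRα+ and 37.5 FPKM in CD137+ cells (log2 difference -1.70), and Agt, angiotensinogen, 45.7 FPKM in PDGFRα+ and 151 FPKM in CD137+ cells (log2 difference -1.54). On the other side Rbp4, the retinol carrier, had 37.4 FPKM in PDGFRα+ cells against 14.1 FPKM in CD137+ cells, Rarres2, chemerin, 286 FPKM in PDGFRα+ and 119.6 FPKM in CD137+ cells (log2 difference 1.41), and Apln, apelin, 47.7 FPKM in PDGFRα+ and 25.1 FPKM in CD137+ cells (log2 difference 1.06). The gene of leptin, Lep, had a row only in the CD137+ table, at 1.48 FPKM.

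Fatty acid synthesis had 8 of 15 members lower and 0 higher, and the median was -1.14. Thrsp had 12.7 FPKM in PDGFRα+ cells against 250.4 FPKM in CD137+ cells. Fatty acid synthase, Fasn, had 44.1 FPKM in PDGFRα+ and 324 FPKM in CD137+ cells, a log2 difference of -2.69. Acly and Me1, which supply acetyl units and reducing power, had 43.4 FPKM in PDGFRα+ and 233 FPKM in CD137+ cells (log2 difference -2.24) and 29.8 FPKM in PDGFRα+ and 208 FPKM in CD137+ cells (log2 difference -2.60), and the desaturase Scd1 had 299 FPKM in PDGFRα+ and 1699 FPKM in CD137+ cells (log2 difference -2.34). Of 20 oxidation genes 19 had a difference below 0, with a median of -0.66. Acadm (-1.01), which starts the breakdown of medium chains, was the 1 member 2-fold lower, while without rescaling and under the trimmed sum 4 members were, and under upper quartile scaling none was. The fatty acid sensor Ppara stood apart from them with 2.18 FPKM in PDGFRα+ and 0.494 FPKM in CD137+ cells (log2 difference 1.25).

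Few thermogenic genes were measured in either library. Ucp1, the uncoupling protein that makes heat, had a row in neither table, as did Cidea and Cox8b, and Ppargc1a stood at 1.05 FPKM in CD137+ cells with no row for PDGFRα+ cells. Of 5 thermogenic genes measured, Pdk4, a brake on glucose oxidation, had 45.7 FPKM in PDGFRα+ and 10.9 FPKM in CD137+ cells (log2 difference 2.14), Ckb, of the creatine cycle, 26.7 FPKM in PDGFRα+ and 7.65 FPKM in CD137+ cells (log2 difference 1.84), and the fat cell adrenergic receptor Adrb3 3.62 FPKM in PDGFRα+ and 19.2 FPKM in CD137+ cells (log2 difference -1.97). Their median of -0.20 turned to 1.84 with a 10 FPKM minimum. Of the beige marker list Tmem26 and Tbx1 had a row only in the CD137+ table, at 0.448 and 1.10 FPKM, and the members higher in PDGFRα+ cells were Myh11 and Acta2, which are also smooth muscle genes. Slc36a2, an amino acid transporter of brown fat, had 19.3 FPKM in PDGFRα+ and 28.0 FPKM in CD137+ cells (log2 difference -0.35).

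Sterol genes were lower as a block. Of 24 genes of cholesterol synthesis and uptake 23 lay below 0, 10 of them past 2-fold, and the median was -0.92; none was 2-fold higher. Hsd17b7 had 3.90 FPKM in PDGFRα+ and 17.1 FPKM in CD137+ cells (log2 difference -1.73), Cyp51 22.3 FPKM in PDGFRα+ and 75.8 FPKM in CD137+ cells (log2 difference -1.56) and Dhcr7 5.10 FPKM in PDGFRα+ and 18.96 FPKM in CD137+ cells (log2 difference -1.55), all enzymes of the later steps. The regulator Insig1 had 24.1 FPKM in PDGFRα+ and 72.8 FPKM in CD137+ cells (log2 difference -1.40). The sterol element TCACNCCAC on either strand lay within 250 bases before the RefSeq start of 1 of 16 matched members, Hmgcs1. The share over all 27025 genes with a RefSeq promoter was 1.22%.

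**Figure D3:**
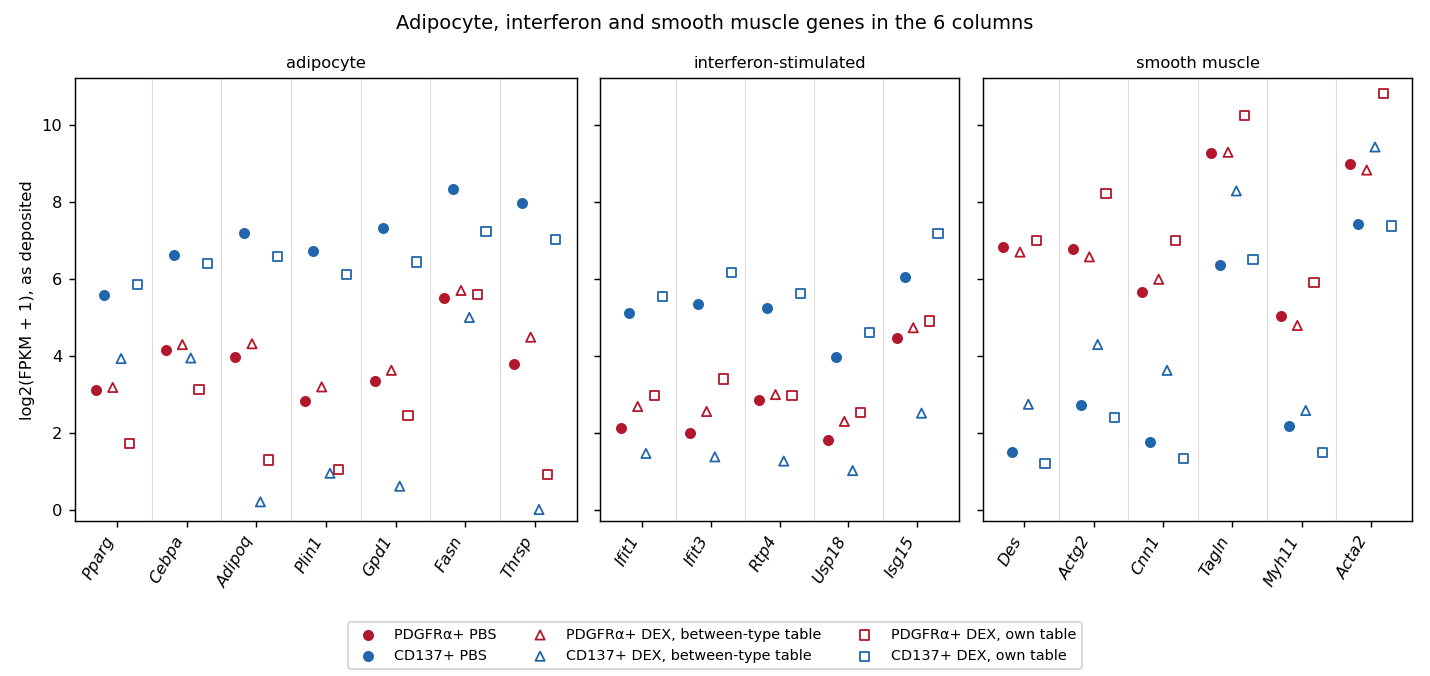
Adipocyte, interferon-stimulated and smooth muscle genes, log2(FPKM + 1) as deposited (vertical axis), with 1 point for each library and table (PDGFRα+ red, CD137+ blue, PBS filled, DEX open). With PBS the adipocyte and interferon genes shown stand higher in CD137+ and the smooth muscle genes higher in PDGFRα+ cells, while the CD137+ DEX column of the between-type table lies below both PBS libraries for Adipoq, Gpd1 and Ifit1.

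Mitochondrial transcripts were lower in PDGFRα+ cells. The 13 protein genes of the mitochondrial genome took 3.45% of summed FPKM in PDGFRα+ and 8.14% in CD137+ cells. Every one lay below 0 and 11 passed 2-fold, the median being -1.39. The cytochrome b gene mt-Cytb had 727 FPKM in PDGFRα+ and 3088 FPKM in CD137+ cells (log2 difference -1.93), and mt-Co1, a core subunit of the terminal oxidase, was nearest to level with 6330.0 FPKM in PDGFRα+ and 10172 FPKM in CD137+ cells (log2 difference -0.53). Nuclear genes of the same complexes were less apart: of 38 members 36 lay below 0 and 3 were 2-fold lower, 7.89% against 5.14% of all compared genes, with a median of -0.51. Without rescaling and under the trimmed sum 7 were 2-fold lower. Cytochrome c, Cycs, had 7.66 FPKM in PDGFRα+ and 34.5 FPKM in CD137+ cells (log2 difference -1.88), the synthase subunit Atp5b 235 FPKM in PDGFRα+ and 587 FPKM in CD137+ cells (log2 difference -1.16), and Cyc1 26.6 FPKM in PDGFRα+ and 68.0 FPKM in CD137+ cells (log2 difference -1.16).

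Glycolysis genes stood on the opposite side. Of 21 genes 7 were higher and none lower in PDGFRα+ cells, and the median was 0.70. The brain-type aldolase, Aldoc, had 20.02 FPKM in PDGFRα+ and 1.18 FPKM in CD137+ cells, a log2 difference of 3.43. The lactate exporter Slc16a3 had 123 FPKM in PDGFRα+ and 46.6 FPKM in CD137+ cells (log2 difference 1.54) and the glucose transporter Slc2a1 79.1 FPKM in PDGFRα+ cells against 30.7 FPKM in CD137+ cells. Pdk1, which keeps pyruvate from mitochondria, had 51.9 FPKM in PDGFRα+ and 21.3 FPKM in CD137+ cells (log2 difference 1.40), and Pgk1 789.9 FPKM in PDGFRα+ and 357 FPKM in CD137+ cells (log2 difference 1.30). By contrast the insulin-responsive transporter Slc2a4 had 3.37 FPKM in PDGFRα+ and 25.3 FPKM in CD137+ cells (log2 difference -2.43).

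Interferon-stimulated genes were lower in PDGFRα+ cells almost throughout. These genes are switched on when interferon-activated transcription factors bind a DNA element, the ISRE, and their products block viruses. Of 31 measured genes 30 lay below 0, 22 of them past 2-fold, with none 2-fold higher and a median of -1.32, where 5.14% of all compared genes were lower. The promoters of 4 members that were 2-fold lower and hold the element are printed to show it. They are the 250 bases before the RefSeq start, 5′ to 3′ on the gene's strand, from GRCm38.p6, with capitals marking the letters GAAANNGAAA on either strand, overlapping matches joined. Ifit1 lies at chr19:34640639-34640888 on the plus strand, Isg15 at chr4:156200819-156201068, Rsad2 at chr12:26456453-26456702 and Oas1a at chr5:120907526-120907775, these 3 on the minus strand.
Ifit1: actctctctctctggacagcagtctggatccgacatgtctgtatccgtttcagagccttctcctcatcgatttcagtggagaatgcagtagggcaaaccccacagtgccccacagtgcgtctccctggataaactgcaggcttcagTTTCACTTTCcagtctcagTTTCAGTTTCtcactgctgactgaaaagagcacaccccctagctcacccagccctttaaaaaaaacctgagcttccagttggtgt
Rsad2: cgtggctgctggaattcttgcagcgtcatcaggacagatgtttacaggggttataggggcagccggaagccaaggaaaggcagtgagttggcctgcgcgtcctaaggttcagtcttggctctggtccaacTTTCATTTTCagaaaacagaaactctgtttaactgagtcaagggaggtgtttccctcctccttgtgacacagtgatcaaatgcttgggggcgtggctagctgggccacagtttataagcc
Isg15: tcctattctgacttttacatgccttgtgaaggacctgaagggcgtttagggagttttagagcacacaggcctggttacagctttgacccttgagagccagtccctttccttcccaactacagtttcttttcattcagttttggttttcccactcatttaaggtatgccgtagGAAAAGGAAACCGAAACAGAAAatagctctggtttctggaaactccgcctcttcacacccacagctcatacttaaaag
Oas1a: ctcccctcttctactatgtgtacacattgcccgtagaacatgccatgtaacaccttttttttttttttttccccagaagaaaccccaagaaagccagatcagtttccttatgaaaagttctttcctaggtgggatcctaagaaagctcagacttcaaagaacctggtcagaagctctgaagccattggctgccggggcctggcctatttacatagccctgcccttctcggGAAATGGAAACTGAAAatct
Of the 32 listed genes 22 had a promoter in the RefSeq table and 12 of these held the element, against 3.46% of all 27025 genes in that table. Among the 14 matched genes that were 2-fold lower 9 held it, and Cmpk2, Irf7, Ifi44, Oasl2 and Ifi35 did not. A match of letters is a description and not a binding site.

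The RNA binding Ifit genes were furthest apart. Ifit1, whose promoter holds a pair of elements, had 3.38 FPKM in PDGFRα+ and 33.6 FPKM in CD137+ cells, a log2 difference of -2.82. Ifit3 had 2.94 FPKM in PDGFRα+ and 39.6 FPKM in CD137+ cells (log2 difference -3.20) and Ifit3b 0.219 FPKM in PDGFRα+ and 6.89 FPKM in CD137+ cells (log2 difference -2.53), near-identical copies whose single values are uncertain. Among the other members with a printed promoter, the ubiquitin-like modifier Isg15 had 21.2 FPKM in PDGFRα+ and 65.9 FPKM in CD137+ cells (log2 difference -1.44), the antiviral enzyme Rsad2 (viperin) 0.908 FPKM in PDGFRα+ and 5.51 FPKM in CD137+ cells (log2 difference -1.61), and the RNA sensor Oas1a 3.12 FPKM in PDGFRα+ and 9.55 FPKM in CD137+ cells (log2 difference -1.20). The chaperone Rtp4 had 6.26 FPKM in PDGFRα+ and 36.9 FPKM in CD137+ cells (log2 difference -2.23) and the nucleotide kinase Cmpk2 0.334 FPKM in PDGFRα+ and 5.54 FPKM in CD137+ cells (log2 difference -2.13). Regulators were lower too, with the factor Irf7 at 7.12 FPKM in PDGFRα+ and 25.9 FPKM in CD137+ cells (log2 difference -1.57) and the brake Usp18 at 2.52 FPKM in PDGFRα+ and 14.7 FPKM in CD137+ cells (log2 difference -2.00). Bst2, tetherin, was near level at 83.8 FPKM in PDGFRα+ cells against 103 FPKM in CD137+ cells.

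Antigen presentation moved less. Of 17 class I and immunoproteasome genes 4 were lower (23.5%) and 1 higher (5.88%), with a median of -0.37. All compared genes gave 5.14% and 8.86%. Nlrc5, the activator of class I genes, had 0.688 FPKM in PDGFRα+ and 5.43 FPKM in CD137+ cells (log2 difference -1.77), the subunit Psmb10 9.42 FPKM in PDGFRα+ and 24.1 FPKM in CD137+ cells (log2 difference -1.11), and B2m, the common light chain, 616 FPKM in PDGFRα+ and 1279 FPKM in CD137+ cells (log2 difference -0.89). H2-Q7 (1.78) and H2-Q4 (-1.21) lay on opposite sides in log2 units, and as similar copies their values are uncertain.

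Cytokines and chemokines split by name. Higher in PDGFRα+ cells were 5 of 25 (20%) and lower 8 (32%), against 8.86% and 5.14% of all compared genes. The alarmin Il33 had 84.5 FPKM in PDGFRα+ and 5.09 FPKM in CD137+ cells, a log2 difference of 3.97. The prostaglandin synthase Ptgs2 had 15.4 FPKM in PDGFRα+ and 1.12 FPKM in CD137+ cells (log2 difference 3.11), the membrane-bound chemokine Cx3cl1 8.84 FPKM in PDGFRα+ and 0.839 FPKM in CD137+ cells (log2 difference 2.58), the granulocyte factor Csf3 19.9 FPKM in PDGFRα+ and 3.70 FPKM in CD137+ cells (log2 difference 2.31) and Il6 6.63 FPKM in PDGFRα+ and 1.76 FPKM in CD137+ cells (log2 difference 1.63). In the CD137+ DEX column of the CD137+ table Ptgs2 stood at 12.7 and Il6 at 14.7 FPKM, while Cx3cl1 stood at 0.775 and Csf3 at 6.54 FPKM. Chemokines of the Ccl family stood on the other side, with the eosinophil attractant Ccl11 at 4.22 FPKM in PDGFRα+ and 51.2 FPKM in CD137+ cells (log2 difference -3.16), the monocyte attractant Ccl2 at 31.6 FPKM in PDGFRα+ and 229 FPKM in CD137+ cells (log2 difference -2.66) and Ccl8 at 1.04 FPKM in PDGFRα+ cells against 66.1 FPKM in CD137+ cells. Il1rn, the antagonist of the interleukin-1 receptor, had 0.656 FPKM in PDGFRα+ and 13.0 FPKM in CD137+ cells (log2 difference -2.92). Il1rl1, the receptor of interleukin 33, had 0.265 FPKM in PDGFRα+ and 9.37 FPKM in CD137+ cells (log2 difference -2.88), so that ligand and receptor were high in different libraries.

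Complement and acute-phase genes gave some of the highest levels in both libraries. Of 27 members 11 were higher (40.7%) and 4 lower (14.8%) in PDGFRα+ cells, with a median of 0.80. The members' sums were 30337 FPKM in PDGFRα+ and 17594 FPKM in CD137+ cells. Saa3, an acute-phase protein, alone took 3.92% of summed FPKM in PDGFRα+ and 2.53% in CD137+ cells, a log2 difference of 0.80. C2, a protease of the classical route, had 115 FPKM in PDGFRα+ and 19.6 FPKM in CD137+ cells (log2 difference 2.65), the central component C3 1935 FPKM in PDGFRα+ and 698 FPKM in CD137+ cells (log2 difference 1.63), and the iron-scavenger carrier Lcn2 1732 FPKM in PDGFRα+ and 467 FPKM in CD137+ cells (log2 difference 2.05). Orm1, an acute-phase glycoprotein, had 3.28 FPKM in PDGFRα+ and 21.4 FPKM in CD137+ cells (log2 difference -2.23), and Cfd, which starts the alternative route, is among the lower genes above.

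Genes known to be induced by glucocorticoids were higher on balance in PDGFRα+ cells, though both libraries were given PBS in place of 1 µM DEX. Whether the differentiation cocktail held a glucocorticoid is not stated. Of 29 measured 10 were higher (34.5%) and 1 lower (3.45%), 26 lay above 0, and the median was 0.53. Without rescaling 7 were higher, and 6 under the trimmed sum. Hsd11b1, which regenerates active glucocorticoid inside cells, had 241 FPKM in PDGFRα+ and 36.4 FPKM in CD137+ cells, a log2 difference of 2.85. The crosslinking enzyme Tgm2 had 184 FPKM in PDGFRα+ and 29.1 FPKM in CD137+ cells (log2 difference 2.78) and the metal-binding protein Mt2 4637 FPKM in PDGFRα+ and 1989 FPKM in CD137+ cells (log2 difference 1.38). Other targets, among them Tsc22d3, Per1 and Fkbp5, did not reach 2-fold. Tsc22d3 (GILZ) had 113 FPKM in PDGFRα+ and 76.1 FPKM in CD137+ cells (log2 difference 0.72). Per1 had 20.4 FPKM in PDGFRα+ and 20.9 FPKM in CD137+ cells (log2 difference 0.13), and Fkbp5, a co-chaperone of the receptor, 64.7 FPKM in PDGFRα+ and 68.1 FPKM in CD137+ cells (log2 difference 0.09). Under the DEX label Tsc22d3 stood at 30.2 FPKM in PDGFRα+ cells of the PDGFRα+ table and 38.5 FPKM in CD137+ cells of the CD137+ table. Fkbp5 stood there at 35.8 FPKM in PDGFRα+ and 66.2 FPKM in CD137+ cells. In the between-type table Tsc22d3 had 121.7 FPKM in PDGFRα+ and 28.7 FPKM in CD137+ cells, and Fkbp5 73.8 FPKM in PDGFRα+ and 47.7 FPKM in CD137+ cells. Of these DEX values only those of the between-type PDGFRα+ column were above PBS. The receptor gene Nr3c1 had 30.5 FPKM in PDGFRα+ and 25.7 FPKM in CD137+ cells (log2 difference 0.40).

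Contractile genes of smooth muscle and pericytes were the list furthest to the PDGFRα+ side. Of 17 measured members 11 were higher and none lower, with a median of 1.72, where 8.86% of all compared genes were higher. Des had 113 FPKM in PDGFRα+ cells against 1.83 FPKM in CD137+ cells. The smooth muscle actin Actg2 had 108 FPKM in PDGFRα+ and 5.63 FPKM in CD137+ cells, a log2 difference of 4.20. Calponin, Cnn1, had 50.0 FPKM in PDGFRα+ and 2.36 FPKM in CD137+ cells (log2 difference 4.08), transgelin, Tagln, 625 FPKM in PDGFRα+ and 81.3 FPKM in CD137+ cells (log2 difference 3.09), and smooth muscle myosin, Myh11, 32.0 FPKM in PDGFRα+ and 3.51 FPKM in CD137+ cells (log2 difference 3.03). Acta2, which myofibroblasts share, had 507 FPKM in PDGFRα+ and 172 FPKM in CD137+ cells (log2 difference 1.72). Of the pericyte genes, Rgs5 stood at 1.18 FPKM in PDGFRα+ cells against 0.613 FPKM in CD137+ cells, Abcc9 at 1.76 FPKM in PDGFRα+ cells against 1.65 FPKM in CD137+ cells, and Cspg4 was just past 2-fold with 2.85 FPKM in PDGFRα+ and 1.09 FPKM in CD137+ cells (log2 difference 1.04). The CArG box, the site of serum response factor, lay before the RefSeq start of 1 of 14 matched members, Myl9. The share over all genes with a RefSeq promoter was 1.62%.

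Fibroblast matrix genes were among the most abundant in both libraries. Of 36 measured 11 were higher (30.6%) and 4 lower (11.1%), with a median of 0.35. The fibril collagens Col1a1 and Col3a1 had 3767 FPKM in PDGFRα+ and 1886 FPKM in CD137+ cells (log2 difference 1.16) and 6337 FPKM in PDGFRα+ and 4579 FPKM in CD137+ cells (log2 difference 0.63). Col14a1 and Col12a1, which sit on fibrils, had 18.8 FPKM in PDGFRα+ and 1.19 FPKM in CD137+ cells (log2 difference 3.34) and 418 FPKM in PDGFRα+ and 99.3 FPKM in CD137+ cells (log2 difference 2.22), and Col11a1 had 65.4 FPKM in PDGFRα+ and 12.1 FPKM in CD137+ cells (log2 difference 2.50). Thrombospondin 2, Thbs2, went the other way with 32.2 FPKM in PDGFRα+ and 316 FPKM in CD137+ cells (log2 difference -3.10), as did the beaded collagen Col6a3 with 79.5 FPKM in PDGFRα+ and 382 FPKM in CD137+ cells (log2 difference -2.09), although Col6a1 was level at 405 FPKM in PDGFRα+ cells against 398 FPKM in CD137+ cells. Fn1 had a row in neither table.

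Proteases and their inhibitors were divided by role. The metalloprotease inhibitor Timp1 had 1161 FPKM in PDGFRα+ and 366 FPKM in CD137+ cells (log2 difference 1.82), and its relative Timp3 had 48.3 FPKM in PDGFRα+ and 20.4 FPKM in CD137+ cells (log2 difference 1.36). The gelatinase Mmp2 had 200.3 FPKM in PDGFRα+ and 573 FPKM in CD137+ cells (log2 difference -1.35) and its activator Mmp14 93.6 FPKM in PDGFRα+ and 253 FPKM in CD137+ cells (log2 difference -1.27). Serpine2, also an inhibitor, broke this division with 56.6 FPKM in PDGFRα+ and 181 FPKM in CD137+ cells (log2 difference -1.50), and the aggrecan-cleaving family member Adamts9 had 32.3 FPKM in PDGFRα+ and 7.87 FPKM in CD137+ cells (log2 difference 2.07). In all 4 of 21 were higher and 4 lower, 19% each, against 8.86% and 5.14% of all compared genes.

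Hippo pathway genes and targets of its factors YAP and TEAD had 9 of 28 members higher (32.1%) and none lower, with a median of 0.39. Without rescaling and under the trimmed sum 6 were higher and 1 lower. Tead1, which the title of the series names, had 45.3 FPKM in PDGFRα+ and 28.3 FPKM in CD137+ cells, a log2 difference of 0.82. Yap1 and Wwtr1 (TAZ), the coactivators, stood at 45.5 FPKM in PDGFRα+ cells against 48.7 FPKM in CD137+ cells and 27.5 FPKM in PDGFRα+ cells against 30.3 FPKM in CD137+ cells. The higher members were chiefly target genes: Cyr61 had 217 FPKM in PDGFRα+ and 68.7 FPKM in CD137+ cells (log2 difference 1.81), Ctgf 109 FPKM in PDGFRα+ and 52.4 FPKM in CD137+ cells (log2 difference 1.21) and Ankrd1 5.47 FPKM in PDGFRα+ and 1.80 FPKM in CD137+ cells (log2 difference 1.37). Amotl1, which restrains YAP, had 44.4 FPKM in PDGFRα+ and 17.2 FPKM in CD137+ cells (log2 difference 1.48), and the growth factor binding protein Crim1 19.8 FPKM in PDGFRα+ and 7.54 FPKM in CD137+ cells (log2 difference 1.44).

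Ligands and modulators of the BMP and TGF-beta families were higher at 13 of 28 measured genes (46.4%) and lower at 1 (3.57%, 3 genes without rescaling). The median was 0.44. Chrdl1, a BMP antagonist, had 29.0 FPKM in PDGFRα+ and 2.95 FPKM in CD137+ cells, a log2 difference of 3.09. Id3, a common BMP response gene, had 173 FPKM in PDGFRα+ and 29.8 FPKM in CD137+ cells (log2 difference 2.66), though Id1 stood at 13.4 FPKM in PDGFRα+ cells against 16.4 FPKM in CD137+ cells. The latency protein Ltbp1 had 20.1 FPKM in PDGFRα+ and 2.95 FPKM in CD137+ cells (log2 difference 2.58), the activin antagonist Fstl3 59.6 FPKM in PDGFRα+ and 13.0 FPKM in CD137+ cells (log2 difference 2.28), and the ligand Tgfb2 15.3 FPKM in PDGFRα+ and 4.14 FPKM in CD137+ cells (log2 difference 1.82). Gdf10 was the lower member, with 16.9 FPKM in PDGFRα+ and 74.7 FPKM in CD137+ cells (log2 difference -1.92).

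In the Wnt list 9 of 19 measured genes were higher (47.4%) and 4 lower (21.1%), with a median of 0.98. The 2 secreted modulators at its ends were of 1 family: Sfrp1 had 502 FPKM in PDGFRα+ and 52.6 FPKM in CD137+ cells, a log2 difference of 3.39, and Sfrp2 had 13.3 FPKM in PDGFRα+ cells against 278 FPKM in CD137+ cells. The feedback genes Nkd1 and Axin2, common readouts of the canonical pathway, had 9.99 FPKM in PDGFRα+ and 2.09 FPKM in CD137+ cells (log2 difference 1.99) and 4.33 FPKM in PDGFRα+ and 0.968 FPKM in CD137+ cells (log2 difference 1.59). Wnt16 had 0.785 FPKM in PDGFRα+ and 6.00 FPKM in CD137+ cells (log2 difference -1.81), and Wnt4 and Wnt6 had rows only in the PDGFRα+ table, at 2.93 and 2.26 FPKM.

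Growth factor genes leaned to PDGFRα+ cells in number. In the insulin-like growth factor list 7 of 25 were higher (28%) and 4 lower (16%). The median of 0.14 turned to -0.02 without rescaling and to -0.04 under the trimmed sum, where 4 were higher and 4 lower. Igfbp4 had 247 FPKM in PDGFRα+ and 39.4 FPKM in CD137+ cells (log2 difference 2.78) and Igf1 20.2 FPKM in PDGFRα+ and 5.30 FPKM in CD137+ cells (log2 difference 1.91), while the insulin receptor substrates divided, with Irs2 at 12.6 FPKM in PDGFRα+ and 6.16 FPKM in CD137+ cells (log2 difference 1.09) and Irs1 at 0.688 FPKM in PDGFRα+ and 3.25 FPKM in CD137+ cells (log2 difference -1.17). Among 23 ligands of the FGF, PDGF, VEGF and EGF families 9 were higher (39.1%) and 2 lower (8.7%). Fgf2 had 65.7 FPKM in PDGFRα+ and 14.4 FPKM in CD137+ cells, a log2 difference of 2.28. The metabolic hormone Fgf21 had 3.51 FPKM in PDGFRα+ and 0.224 FPKM in CD137+ cells (log2 difference 2.04), Vegfa 173 FPKM in PDGFRα+ and 63.3 FPKM in CD137+ cells (log2 difference 1.59) and the lymphatic factor Vegfc 32.0 FPKM in PDGFRα+ and 10.55 FPKM in CD137+ cells (log2 difference 1.67), against Angpt1, which steadies vessels, with 1.60 FPKM in PDGFRα+ and 7.69 FPKM in CD137+ cells (log2 difference -1.59).

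Immediate early genes, which respond within minutes to a stimulus, were higher in PDGFRα+ cells at 6 of 15 measured members (40%). None was 2-fold lower, and the median was 0.83. Fos had 43.7 FPKM in PDGFRα+ and 3.54 FPKM in CD137+ cells, a log2 difference of 3.46. Ier3 had 107 FPKM in PDGFRα+ and 15.6 FPKM in CD137+ cells (log2 difference 2.86), the mRNA decay factor Zfp36 27.3 FPKM in PDGFRα+ and 11.9 FPKM in CD137+ cells (log2 difference 1.29), and Egr1 9.36 FPKM in PDGFRα+ and 3.95 FPKM in CD137+ cells (log2 difference 1.22). The CD137+ DEX column of the CD137+ table lay close to CD137+ PBS over all genes, yet held Fos at 147.9, Ier3 at 43.1, Zfp36 at 65.1 and Egr1 at 149.8 FPKM. Jun and Myc were less than 2-fold apart, at 27.2 FPKM in PDGFRα+ cells against 16.7 FPKM in CD137+ cells and 21.0 FPKM in PDGFRα+ cells against 21.7 FPKM in CD137+ cells.

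Genes of dividing cells were low in level. All 27 mitosis genes lay below 0, 6 of them 2-fold lower, with a median of -0.73 and sums of 111 FPKM in PDGFRα+ and 234 FPKM in CD137+ cells. Without rescaling 11 were 2-fold lower, and 12 under the trimmed sum. The mitotic cyclin Ccnb2 had 3.44 FPKM in PDGFRα+ and 12.4 FPKM in CD137+ cells (log2 difference -1.43), the exit factor Cdc20 2.94 FPKM in PDGFRα+ and 10.7 FPKM in CD137+ cells (log2 difference -1.41), and the proliferation marker Mki67 3.19 FPKM in PDGFRα+ and 7.99 FPKM in CD137+ cells (log2 difference -0.94). Of 27 replication genes 2 were lower and 1 higher, 7.41% and 3.70% against 5.14% and 8.86% of all compared genes, with a median of -0.59. Without rescaling and under the trimmed sum 8 were lower and 0 higher. The nuclease Fen1 had 1.08 FPKM in PDGFRα+ and 4.73 FPKM in CD137+ cells (log2 difference -1.31) and the helicase subunit Mcm5 1.59 FPKM in PDGFRα+ and 5.39 FPKM in CD137+ cells (log2 difference -1.14). Cell cycle inhibitors did not move together: Cdkn1b (p27) had 47.6 FPKM in PDGFRα+ and 21.5 FPKM in CD137+ cells (log2 difference 1.27) and Cdkn2b (p15) 43.0 FPKM in PDGFRα+ and 21.2 FPKM in CD137+ cells (log2 difference 1.15), whereas Cdkn1a (p21) stood at 96.9 FPKM in PDGFRα+ cells against 130.3 FPKM in CD137+ cells. Trp53, the gene of p53, had 17.9 FPKM in PDGFRα+ and 49.4 FPKM in CD137+ cells (log2 difference -1.26). Of its list 2 of 20 were higher (10%) and 1 lower (5%), close to the 8.86% and 5.14% of all compared genes. Without rescaling the counts were 1 and 3.

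Of 31 genes of endoplasmic reticulum stress and of the factor ATF4 6 were higher and 1 lower, or 19.4% and 3.23%, against 8.86% and 5.14% of all compared genes. Without rescaling 4 were higher and 2 lower. The ATF4 targets Chac1, Trib3 and Stc2 had 5.93 FPKM in PDGFRα+ and 0.623 FPKM in CD137+ cells (log2 difference 2.25), 16.7 FPKM in PDGFRα+ and 4.41 FPKM in CD137+ cells (log2 difference 1.87) and 21.7 FPKM in PDGFRα+ and 6.55 FPKM in CD137+ cells (log2 difference 1.75), and the chaperone Hspa5 (BiP) stood at 215 FPKM in PDGFRα+ cells against 298 FPKM in CD137+ cells. Among 30 antioxidant and detoxification genes 4 (13.3%) were higher and 3 (10%) lower, with a median of -0.02, which was 0.00 with a minimum of 10 FPKM. Aldh1a2 and Aldh1a3, which make retinoic acid, had 16.7 FPKM in PDGFRα+ and 0.432 FPKM in CD137+ cells (log2 difference 3.79) and 7.10 FPKM in PDGFRα+ and 0.454 FPKM in CD137+ cells (log2 difference 2.64), and Aldh1a2 is also a mesothelial gene. Catalase, Cat, had 21.8 FPKM in PDGFRα+ and 86.8 FPKM in CD137+ cells (log2 difference -1.79).

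**Figure D4:**
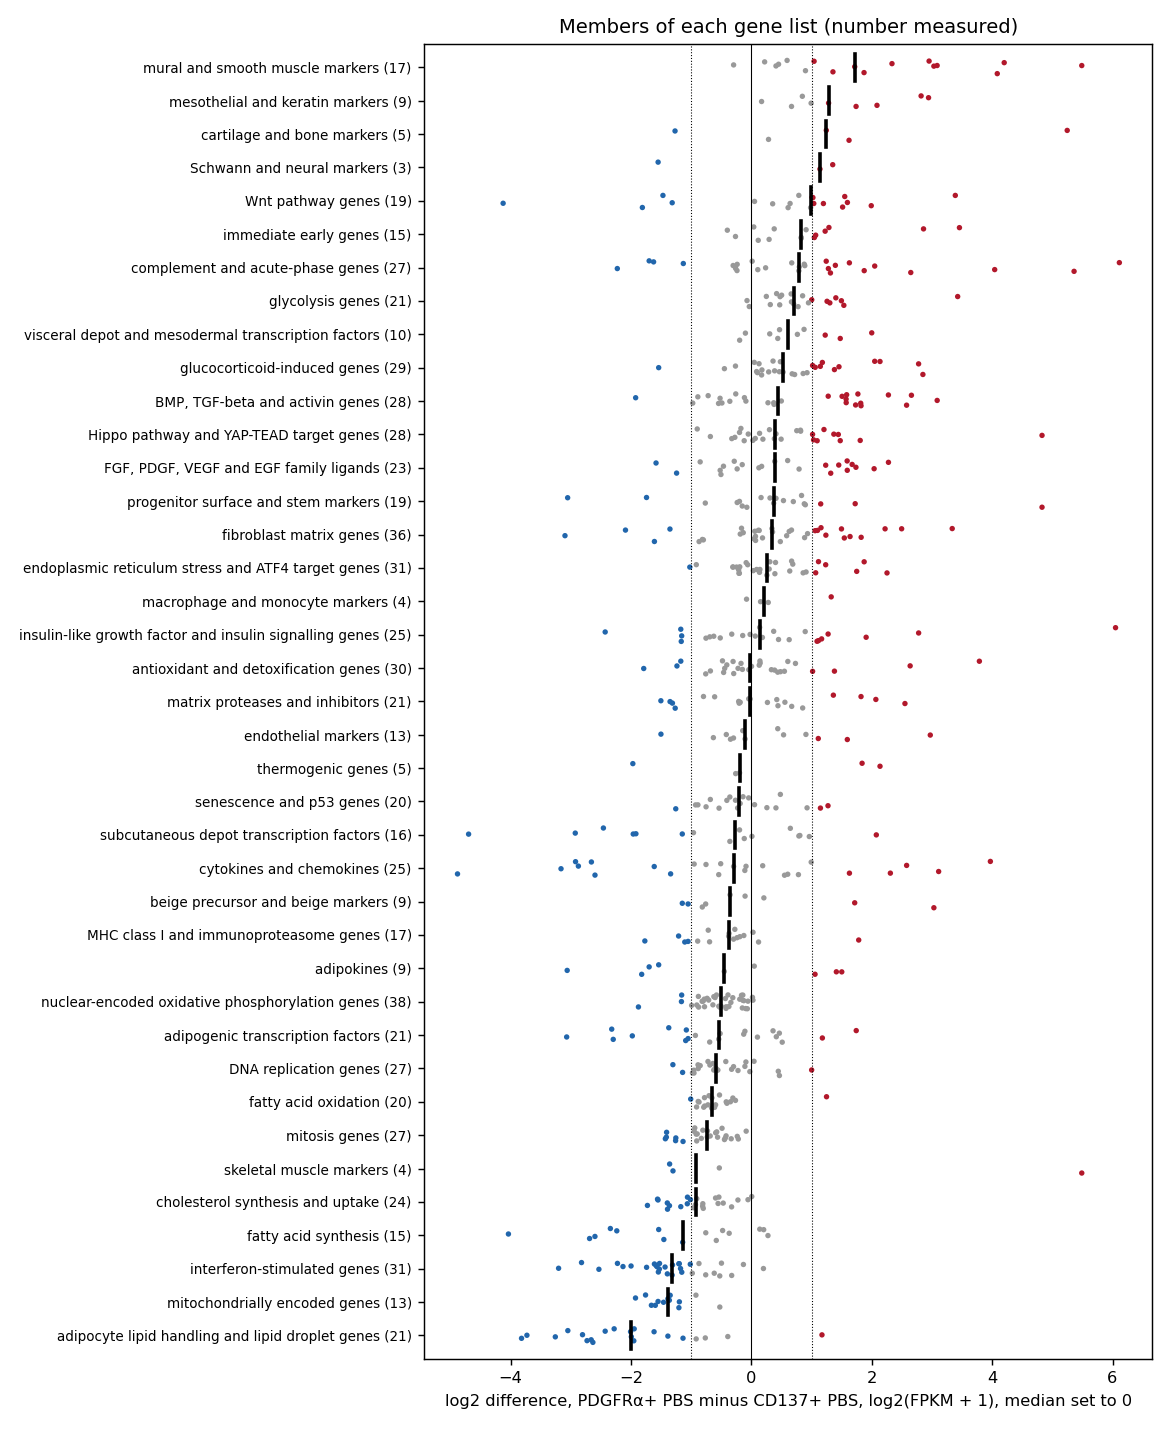
Log2 differences of the measured members of 39 gene lists between PDGFRα+ and CD137+ PBS libraries (horizontal axis), with 1 point a gene and a bar at the median, ordered by median. Red points are at least 2-fold higher and blue at least 2-fold lower in PDGFRα+ cells (dotted lines), and the medians run from 1.72 for mural to -2.01 for adipocyte lipid genes.

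Some genes had a row in 1 table only, and their difference cannot be formed. A table lists a gene only where the higher of its columns is at least 0.386 FPKM in the PDGFRα+ and 0.397 FPKM in the CD137+ table, but a missing row is no proof of a low level. The cytoskeletal genes Flna and Sptan1, used by nearly every cell, stood at 144 and 61.3 FPKM in PDGFRα+ cells with no row in the CD137+ table, and Sptbn1 at 108 FPKM in CD137+ cells with none in the PDGFRα+ table. Rows only in the PDGFRα+ table numbered 1447, 256 of them at 1 FPKM or more with PBS. Among these the growth cone protein Stmn2 stood at 21.4 FPKM, the matrix protease Mmp7 at 14.5 and the Wnt agonist Rspo1 at 7.12. For Stmn2 the between-type table gave 20.7 FPKM in PDGFRα+ DEX and 0.702 FPKM in CD137+ DEX cells. Rows only in the CD137+ table numbered 646, 113 of them at 1 FPKM or more, and included the neurotrophin receptor Ngfr at 6.47 FPKM and the homeobox gene Lhx8 at 5.87 FPKM. Lhx8 stood at 0.0839 FPKM in PDGFRα+ DEX and 3.56 FPKM in CD137+ DEX cells.

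The between-type table gives the same cell types under the DEX label, by the same rule within its own columns. There 1690 of 12912 genes, 13.1%, were 2-fold higher in PDGFRα+ cells and 900, 6.97%, lower. No column is shared with the PBS comparison, but the PDGFRα+ columns of both lie close to each other, as given above, so the sets are not independent. Of the genes higher with PBS 669 were also higher there, 60.5% of the PBS set and 39.6% of the DEX set, and 19 were lower. Of the genes lower with PBS 203 were also lower there, 31.6% and 22.6% of the sets, and 83 were higher.

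Depot and mural lists lay on the same side in both tables. The between-type counts that follow are to be read beside that table's own shares, 13.1% of compared genes higher and 6.97% lower. Under the DEX label 8 of 20 subcutaneous factors were lower and 1 higher in PDGFRα+ cells, 7 of 13 visceral factors were higher and none lower, and 8 of 17 mural genes were higher and none lower. Tbx15 there had 0.630 FPKM in PDGFRα+ and 36.2 FPKM in CD137+ cells (log2 difference -4.27), Nr2f2 61.0 FPKM in PDGFRα+ and 17.2 FPKM in CD137+ cells (log2 difference 2.01) and Des 103 FPKM in PDGFRα+ and 5.68 FPKM in CD137+ cells (log2 difference 4.20). The adipocyte and interferon lists did not. Of 22 lipid genes measured there 14 were higher and 1 lower in PDGFRα+ cells, with a median of 1.64, against -2.01 with PBS. Of 29 interferon-stimulated genes 21 were higher and none lower, with a median of 1.52 against -1.32. Adipoq had 18.9 FPKM in PDGFRα+ and 0.149 FPKM in CD137+ cells (log2 difference 4.36) and Ifit1 5.41 FPKM in PDGFRα+ and 1.75 FPKM in CD137+ cells (log2 difference 1.46). The other DEX columns did not repeat this for Adipoq, which stood at 1.44 FPKM in PDGFRα+ DEX cells of the PDGFRα+ table and at 95.7 FPKM in CD137+ DEX cells of the CD137+ table. All 27 mitosis genes were lower there, with a median of -2.10, and of 18 immediate early genes none were higher and 10 lower.

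**Figure D5:**
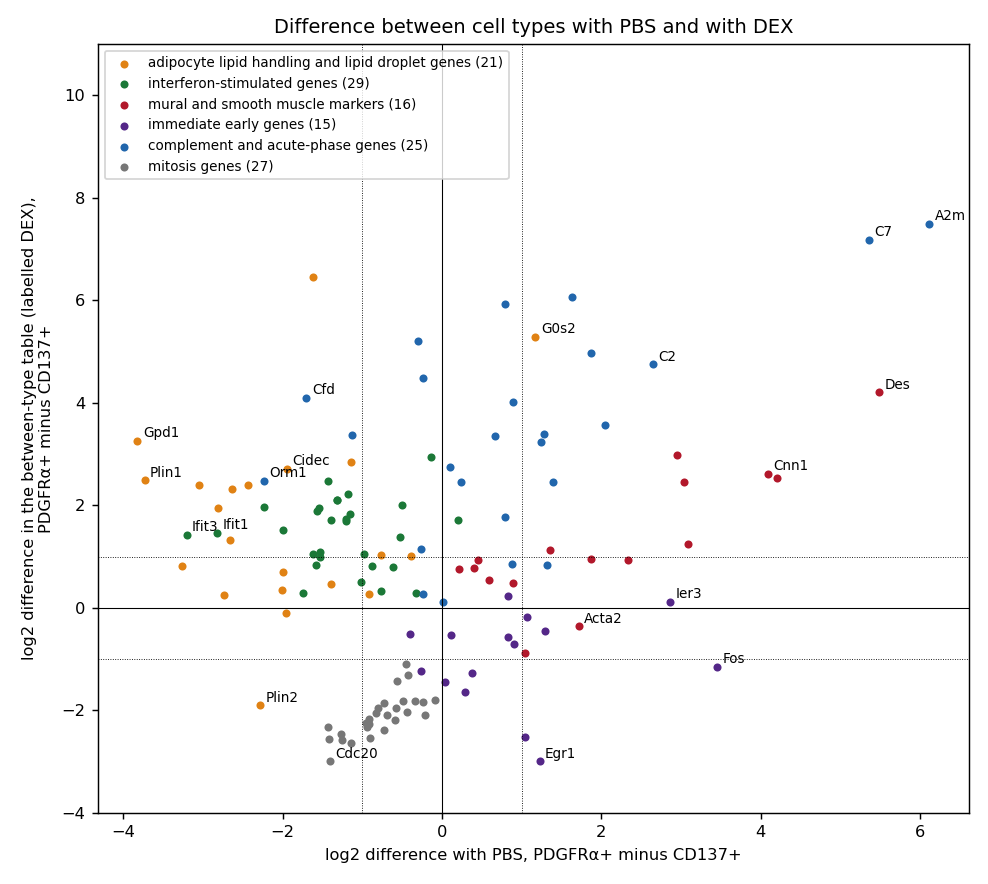
Log2 difference between PDGFRα+ and CD137+ cells with PBS (horizontal axis) and under the DEX label in the between-type table (vertical axis) for 6 gene lists, 1 point a gene, dotted lines at 2-fold. Mural and complement genes lie mostly in the upper right, adipocyte and interferon genes mostly in the upper left, higher in CD137+ with PBS and in PDGFRα+ under DEX.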

How the data were processed

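Per the labels' protocols, Trizol RNA of 4 samples went into Illumina TruSeq libraries. The submitters' processing notes name Cuffdiff, Cufflinks and mm10. No aligner or annotation is named there (not given in the sources used here). Per the file headers, the authors deposited FPKM in 3 tables of 2 libraries. FPKM depends on a library's total, so a few abundant transcripts lower the rest. The tables were made separately, so a difference across them is approximate, and 0 per-sample columns were left unmapped.

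PBS columns were joined on gene ID, of which 99.8% were found in GENCODE M21. Differences used log2(FPKM + 1), a scale on which low genes appear closer than they are, at a minimum of 1 FPKM and 2-fold, and were computed in Python 3.11.15 with numpy 2.4.6, pandas 2.3.3 and matplotlib 3.10.9. The script was tested on simulated data. Depth is unknown, so no interval is given. The 42 gene lists (887 genes) and the comparison itself were chosen with earlier results of these data known. Named genes were Pdgfra, Tnfrsf9, Tead1, Nr3c1, Pparg, Adipoq, Ucp1 and Fkbp5, the 12 highest and 12 lowest with at least 5 FPKM (predicted genes left out), the members most apart in each list, 5 at most, members whose role defines a list, and the genes nearest the threshold. Other genes named beside these, such as the Hoxc cluster, G0s2, Il1rl1 and the insulin receptor substrates, were chosen after their values were seen. A list's sum covers its measured members, those with a row in both tables and at least 1 FPKM in 1 library. Alternatives were other pseudocounts, minimums, scalings and thresholds, and leaving out genes at 0 or with near-identical copies. Promoters are RefSeq's, GRCm38.p6, and motifs were searched on both strands. A few list members are counted within their lists but are not reported here by name.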

Additional observations from a re-analysis of the deposited data

Results flagged for a closer look

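For 32 genes the difference between the cell types was 2-fold or more in opposite directions under the DEX label of the between-type table and with PBS, with 1 library in each of the 4 groups of that contrast. The difference of the differences was not tested. The genes were taken from those named in the report, so their number says nothing about all genes. The between-type PDGFRα+ column lies close to PDGFRα+ PBS, and the CD137+ DEX columns of the tables differ from each other.

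In log2 units, genes lower in PDGFRα+ cells under DEX and higher with PBS were Fos (-1.15 under DEX, 3.46 with PBS), Ptgs2 (-2.00 under DEX, 3.11 with PBS), Egr1 (-2.99 under DEX, 1.22 with PBS), Ctgf (-1.41 under DEX, 1.21 with PBS), Ncam1 (-1.19 under DEX, 1.14 with PBS) and Rrm2 (-1.39 under DEX, 1.00 with PBS). They take in early response genes, a prostaglandin synthase, a target gene of YAP, a neural adhesion protein and a replication enzyme.

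Genes higher in PDGFRα+ cells under DEX and lower with PBS were largely adipocyte genes, namely Fabp4 (2.84 under DEX, -1.14 with PBS), Agt (3.37 under DEX, -1.54 with PBS), Cfd (4.10 under DEX, -1.70 with PBS), Retn (4.51 under DEX, -1.82 with PBS), Adrb3 (2.10 under DEX, -1.97 with PBS), Scd1 (2.27 under DEX, -2.34 with PBS), Slc2a4 (2.39 under DEX, -2.43 with PBS), Lipe (2.31 under DEX, -2.63 with PBS), Pnpla2 (1.94 under DEX, -2.81 with PBS), Cd36 (2.39 under DEX, -3.05 with PBS), Adipoq (4.36 under DEX, -3.06 with PBS), Mlxipl (1.39 under DEX, -3.07 with PBS), Plin1 (2.49 under DEX, -3.73 with PBS), Gpd1 (3.26 under DEX, -3.82 with PBS), Acsl1 (1.14 under DEX, -3.88 with PBS) and Thrsp (4.73 under DEX, -4.04 with PBS), in log2 units. Thrsp and Cfd were listed at 0 in the CD137+ DEX column of the between-type table, so their values there are not measured differences. The interferon-stimulated genes of this direction were Oas1a (1.74 under DEX, -1.20 with PBS), Isg15 (2.47 under DEX, -1.44 with PBS), Irf7 (1.89 under DEX, -1.57 with PBS), Rsad2 (1.05 under DEX, -1.61 with PBS), Usp18 (1.52 under DEX, -2.00 with PBS), Rtp4 (1.97 under DEX, -2.23 with PBS), Ifit1 (1.46 under DEX, -2.82 with PBS) and Ifit3 (1.42 under DEX, -3.20 with PBS). The class I gene H2-Q4 (1.32 under DEX, -1.21 with PBS) and the acute-phase gene Orm1 (2.47 under DEX, -2.23 with PBS) were the others. Between the DEX columns of the separate PDGFRα+ and CD137+ tables every gene of this direction was lower in PDGFRα+ cells, as with PBS. There Plin1 stood at 1.06 FPKM in PDGFRα+ and 68.1 FPKM in CD137+ cells, and Isg15 at 29.0 FPKM in PDGFRα+ and 143.6 FPKM in CD137+ cells.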

How the results depend on the processing

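The count of genes higher in PDGFRα+ cells, 1106, moved by more than 1.5 times to 546 with a pseudocount of 5 FPKM, 604 with a minimum of 10 FPKM, 2543 at 1.5-fold and 228 at 4-fold. The count of genes lower, 642, moved to 993 with a pseudocount of 0.1 FPKM, 275 with one of 5 FPKM, 979 under the trimmed sum, 1770 at 1.5-fold and 106 at 4-fold. Other settings left both within 1.5 times. In the settings added after the data were seen, rescaling before the pseudocount gave 1053 higher and 691 lower, and leaving out Mup, Prl2c, Ly6c, H2 and Ifit3 genes 1100 and 630. No named gene that was 2-fold apart changed direction. With a pseudocount of 5 FPKM 56 of 268 named genes came under 2-fold. Without rescaling 12 came under it (Akap8l, Apln, Atf3, Cd24a, Cdh5, Cdkn2b, Col1a1, Cspg4, Irs2, Mthfd2, Ncam1 and Rrm2) and 12 passed it (B2m, Cox5a, Eme2, Etfb, Etfdh, Hadha, Leo1, Lmnb1, Mki67, Ndufs1, Pole and Tk1). List medians that changed sign are given in the report with their values. The cause of these shifts was not tested. No paired analysis was possible because the groups compared share fewer than 2 replicate numbers, and with 1 library a side none could be left out. Unknown depth leaves low genes the least certain.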
